A study of Polyandrocarpa zorritensis and Clavelina lepadiformis with 36 samples.

Results

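Dormant spherules of the colonial ascidian Polyandrocarpa zorritensis were compared with stolons of the same species, transcript by transcript, by bulk RNA sequencing. The deposited table holds 27938 P. zorritensis transcripts with 1 value for each life stage, the authors' mean over replicates. A transcript was compared where the higher of its dormant and stolon means was at least 5, which held for 16255 of the 27938 (58.2%), out of 46548 transcripts in the series. Values are length-normalised transcript abundances (TPM) rescaled by trimmed mean (TMM) factors, and are called levels here. A change is the log2 of (dormant + 1) over (stolon + 1), so it is positive where spherules were higher, and folds are taken from the same quantities. Transcripts are said to have risen or fallen in spherules only where this change reached 2-fold.

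The series covers 5 life stages of P. zorritensis and of a second ascidian, Clavelina lepadiformis, in 36 samples. The germinating mean of P. zorritensis pools 6 samples, some germinated at a lower and some at a higher temperature. The paper combined such replicates because it found no significant difference between them. Levels given below for germinating spherules therefore cannot be assigned to either temperature. The comparison rests on 3 dormant and 3 stolon samples of P. zorritensis, each pooled from 3 or more specimens. Dormant spherules were taken from harbor ropes in the spring, when no zooids were present, and were flash-frozen at once. Stolons were grown in the laboratory, out of spherules of the same rope germinated there. Dormancy therefore cannot be told apart from field collection against laboratory growth. No genetic line, age or treatment is given for either group. Because only stage means were analysed, no value has an error, no difference could be tested against the spread between samples, and every count below describes these means. The depth behind the means is unknown.

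In P. zorritensis a stolon is an outgrowth of the body wall that carries blood vessels, spreads over the substrate and forms the nests from which new zooids bud. A spherule is a cluster of vascular chambers, the ampullae, enclosed in a thick tunic, and survives after the zooids have died. The cells of its epithelium are filled with lipid and glycogen granules, and its vessels hold hemocytes. In bulk RNA, fewer cells of a type and less RNA per cell cannot be told apart.

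Of the 16255 transcripts, 3129 (19.2%) rose at least 2-fold in spherules and 3652 (22.5%) fell, so 41.7% differed by that much in either direction. Counts within the gene lists below are to be read beside these shares. At 4-fold there were 1187 higher and 1745 lower transcripts, and at 8-fold 535 higher and 755 lower. The median change was -0.019, and the interquartile range ran from -0.87 to 0.75. The changes nearest the threshold were 1.00 inside and 1.00 outside, and 252 transcripts lay within 0.02 of it. The stolon mean was at most 1 in 548 of the transcripts that rose, and the dormant mean was at most 1 in 995 of those that fell.

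Names cover a small share of these transcripts. A protein entry name was at hand for 2669 of the transcripts compared, or 16.4%, since names came only with transcripts that had a reciprocal best match in C. lepadiformis and were called different between stages. Among the named, 429 rose (16.1%) and 497 fell (18.6%), so 34.7% differed by 2-fold, and the median was -0.015. Only 38 of the 535 transcripts at least 8-fold higher in spherules and 45 of the 755 at least 8-fold lower had a name. The most extreme transcripts were unnamed. TRINITY_DN3665_c0_g1_i14.p1 had a level of 13524 in spherules and 0.078 in stolons, and TRINITY_DN68_c7_g1_i1.p1 had 9397 in spherules and was listed at 0 in stolons. In the other direction, TRINITY_DN972_c2_g2_i4.p2 had 5.46 in spherules against 3648 in stolons.

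Spherule RNA was dominated by fewer transcripts than stolon RNA. The 10 most abundant transcripts held 24.0% of the summed level in spherules and 12.6% in stolons, and the top 100 held 60.6% in spherules and 40.2% in stolons. The most abundant transcript in spherules, which has no name, alone held 9.24% of the sum. The summed level itself was 1570747 in spherules and 806444 in stolons, a ratio of 1.95, which remained after the authors' scaling. Rescaling both stages to the same sum lowered abundant transcripts by about 0.95 on the log2 scale and put the median of all transcripts at -1.01, with 1103 higher and 8359 lower. Higher transcripts were 46.1% of the calls as deposited and 11.7% after that rescaling. Directions below are those of the deposited scale, which leaves the median transcript near 0.

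Ribosomal genes headed the named transcripts by level in both stages. Ribosomal proteins build the ribosome, and all 42 cytosolic ones were higher in spherules, 19 of them at least 2-fold and none lower, with a median of 0.94 against -0.019 over all transcripts. RPS15 had a level of 31268 in spherules against 3531 in stolons, the highest of any named transcript in spherules. RPLP0, of the ribosomal stalk, had 9243 in spherules against 2142 in stolons. RPS12 had 12753 in spherules and 3776 in stolons, and RPL37A had 18428 in spherules and 7076 in stolons. RPS27, the most abundant named transcript in stolons, stayed within 2-fold at 13965 in spherules and 8449 in stolons. The 42 together made up 17.0% of the summed level in spherules and 14.8% in stolons. With both stages at the same sum their median was -0.027, against -1.01 over all transcripts, and 2 of them stayed past 2-fold.

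Of 29 translation factors compared, 13 rose and 2 fell, with a median of 0.86 (-0.014 at the same sum, where 4 rose and 4 fell). EIF2S2, a subunit of the factor that brings the first tRNA, had 392 in spherules and 70.5 in stolons. EEF1D, an exchange factor of elongation, had 1480 in spherules and 291.7 in stolons. All 10 subunits of the initiation complex eIF3 that were compared were higher in spherules, 6 of them at least 2-fold, with levels of 209.8 in spherules and 39.1 in stolons for EIF3G and 34.2 in spherules and 26.2 in stolons for EIF3B. This split by complex was made after the values had been seen. The factors that fell were EIF4G2, at 4.94 in spherules and 17.9 in stolons, and EIF4G3, at 10.9 in spherules and 24.8 in stolons. EIF4G2 is known in mammals for translation without the usual cap-binding complex. Mitochondrial ribosomal proteins had 4 of 16 higher and none lower, with a median of 0.71, beside 19.2% and 22.5% over all transcripts. Of 14 tRNA synthetases none rose and 2 fell, among them KARS1, which charges lysine tRNA, at 4.10 in spherules and 25.2 in stolons.

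**Figure D1:**
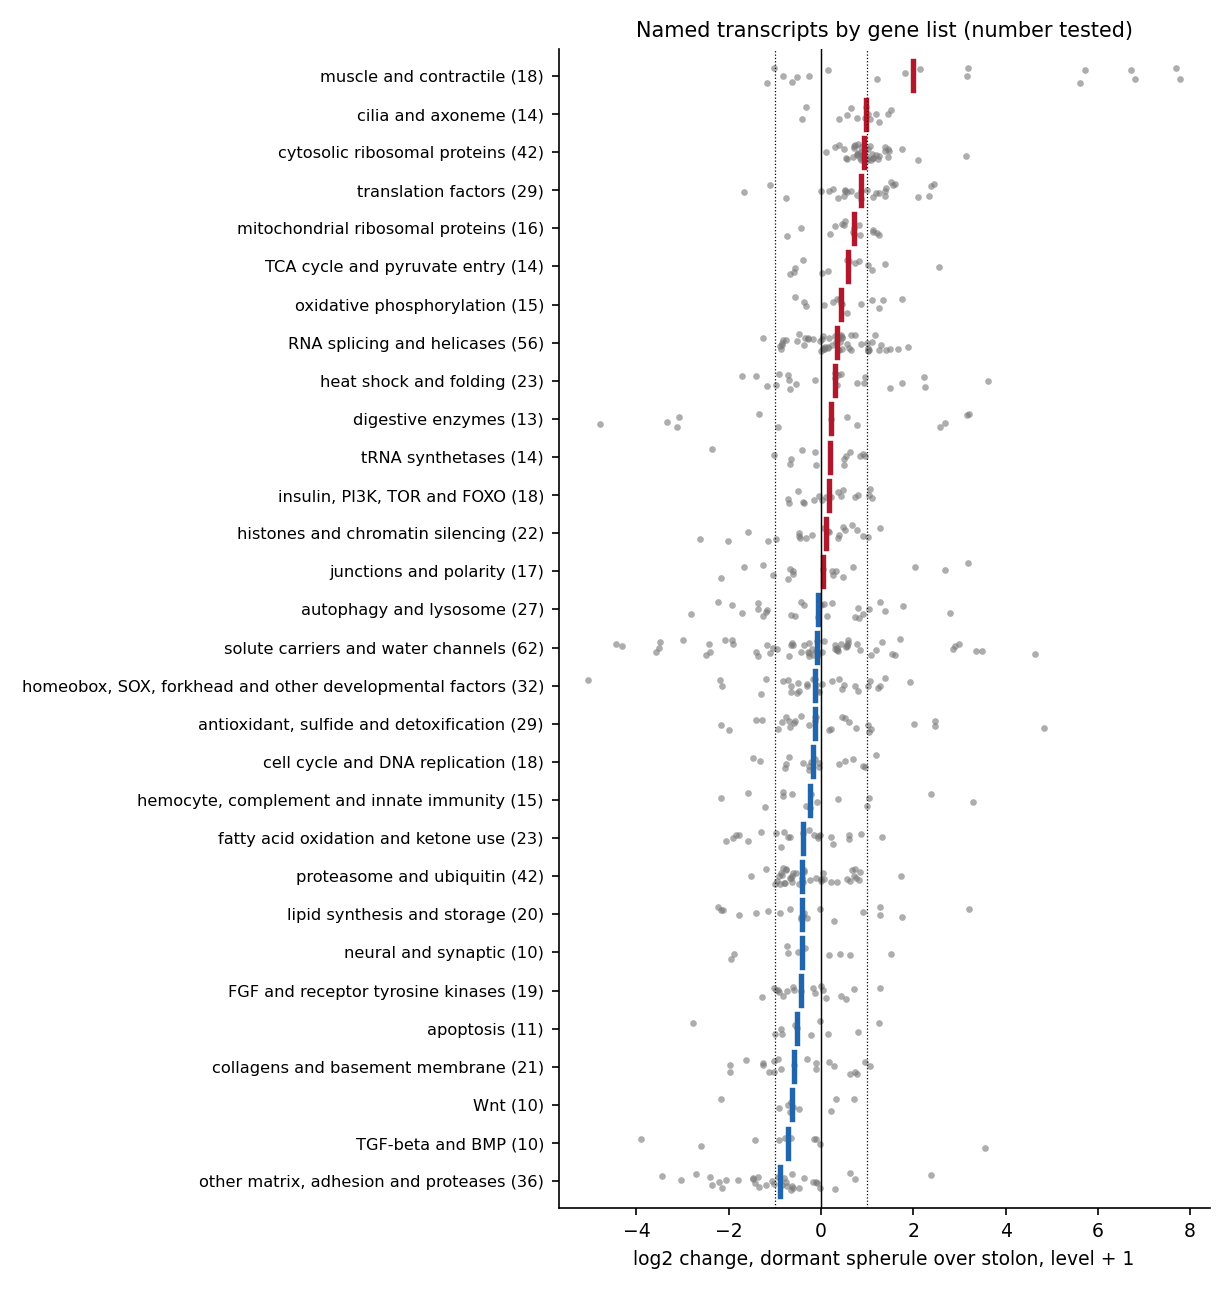
Log2 change, dormant spherule over stolon, of each named transcript (grey points) in the 30 gene lists with at least 10 transcripts compared, with the median of each list as a bar (red above 0, blue below) and dotted lines at 2-fold. Muscle and ribosomal lists lie to the right, with medians of 1.98 and 0.94, and the list of other matrix, adhesion and protease genes lies lowest at -0.88.

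Sugar metabolism was the clearest enzymatic difference. Of 7 glycolytic transcripts, 6 rose in spherules and none fell, with a median of 2.39, or 1.44 at the same sum, where 4 rose and 1 fell. GAPDH, the glyceraldehyde phosphate dehydrogenase of lower glycolysis, had 2034 in spherules and 129.3 in stolons, a 15.6-fold difference. PGK1, which follows it and yields ATP, had 173 in spherules and 28.5 in stolons. ALDOC, an aldolase, had 448 in spherules and 84.5 in stolons. LDHB, a lactate dehydrogenase subunit that interconverts pyruvate and lactate, had 77.3 in spherules and 7.98 in stolons.

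The entry into the pathway differed less. HK2, a hexokinase, had 144 in spherules and 71.2 in stolons, just at 2-fold. PFKM, a phosphofructokinase, had 9.23 in spherules and 3.77 in stolons. GALM, which converts the anomers of galactose and glucose, was outside the list and had 1350.4 in spherules against 26.3 in stolons, a 49.4-fold difference. The glucose carrier SLC2A1 had 47.7 in spherules and 18.5 in stolons.

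Among genes past 2-fold, those of glucose and glycogen synthesis and those of glycogen breakdown differed in direction. PCK2, which makes phosphoenolpyruvate from oxaloacetate, had 552 in spherules and 77.1 in stolons. PC, pyruvate carboxylase, had 64.4 in spherules and 14.7 in stolons. GYS1, glycogen synthase, had 15.4 in spherules and 3.17 in stolons. Against these, the glycogen phosphorylase PYGB had 26.8 in spherules and 63.7 in stolons. PHKA2, a regulatory subunit of the kinase that activates phosphorylase, had 3.71 in spherules and 25.5 in stolons. The list thus had 3 higher and 2 lower of 7 compared. The 3 higher act in making glucose or glycogen and the 2 lower in glycogen breakdown. These 5 directions and calls also held at the same sum. UGP2 and GYG1, also of glycogen synthesis, stayed within 2-fold, at 16.0 and 11.5 in spherules against 7.74 and 10.3 in stolons.

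Of 23 genes of fatty acid oxidation and ketone use, 6 fell (26.1%) and 1 rose (4.35%), with a median of -0.38. The share that fell was near the 22.5% over all transcripts, and the share that rose was under the 19.2%. The genes that fell act in fatty acid transport or oxidation. CPT1A and CPT1B, which attach carnitine to fatty acids at the outer mitochondrial membrane, had 4.55 and 0.869 in spherules against 12.7 and 6.73 in stolons. SLC25A20, which carries acylcarnitine inward, had 5.26 in spherules and 21.4 in stolons. ACADVL, the dehydrogenase for very long chains, had 17.4 in spherules and 67.7 in stolons, and HADHA, of the trifunctional protein, had 4.19 in spherules and 16.9 in stolons. ECI2, an isomerase for unsaturated fatty acids, was the member that rose, at 30.3 in spherules and 11.5 in stolons.

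Outside that list, SLC22A5, a plasma membrane carnitine carrier, had 4.58 in spherules and 110.0 in stolons, among the largest falls of any named gene. CRAT, carnitine acetyltransferase, had 7.61 in spherules and 84.7 in stolons. Counted together after the values had been seen, the 7 carnitine carriers and transferases compared were all lower in spherules, 6 of them at least 2-fold, with CPT2 within it at 4.08 in spherules and 8.28 in stolons. With all transcripts of its Trinity gene summed, CPT1B changed by -0.44 and its fall ended.

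Mitochondrial genes were mixed, beside shares of 19.2% higher and 22.5% lower over all transcripts. In the TCA cycle, 4 of 14 rose and none fell, with a median of 0.59 that turned to -0.36 at the same sum, where 1 rose and 4 fell. SDHB, the iron-sulfur subunit of succinate dehydrogenase, had 474 in spherules and 80.2 in stolons. MDH1 had 221 in spherules and 84.5 in stolons, SUCLG1 had 78.2 in spherules and 35.8 in stolons, and FH had 29.3 in spherules and 13.998 in stolons. The other subunits did not follow in every case. SDHA, the catalytic subunit of succinate dehydrogenase, had 13.4 in spherules and 21.8 in stolons, and SUCLA2, SUCLG2 and DLAT were also lower in spherules within 2-fold. In oxidative phosphorylation 4 of 15 rose and none fell, with a median of 0.43 (-0.52 at the same sum, with 4 lower and none higher). The 4 that rose were complex I subunits, led by NDUFA8 at 210.5 in spherules and 61.9 in stolons.

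**Figure D2:**
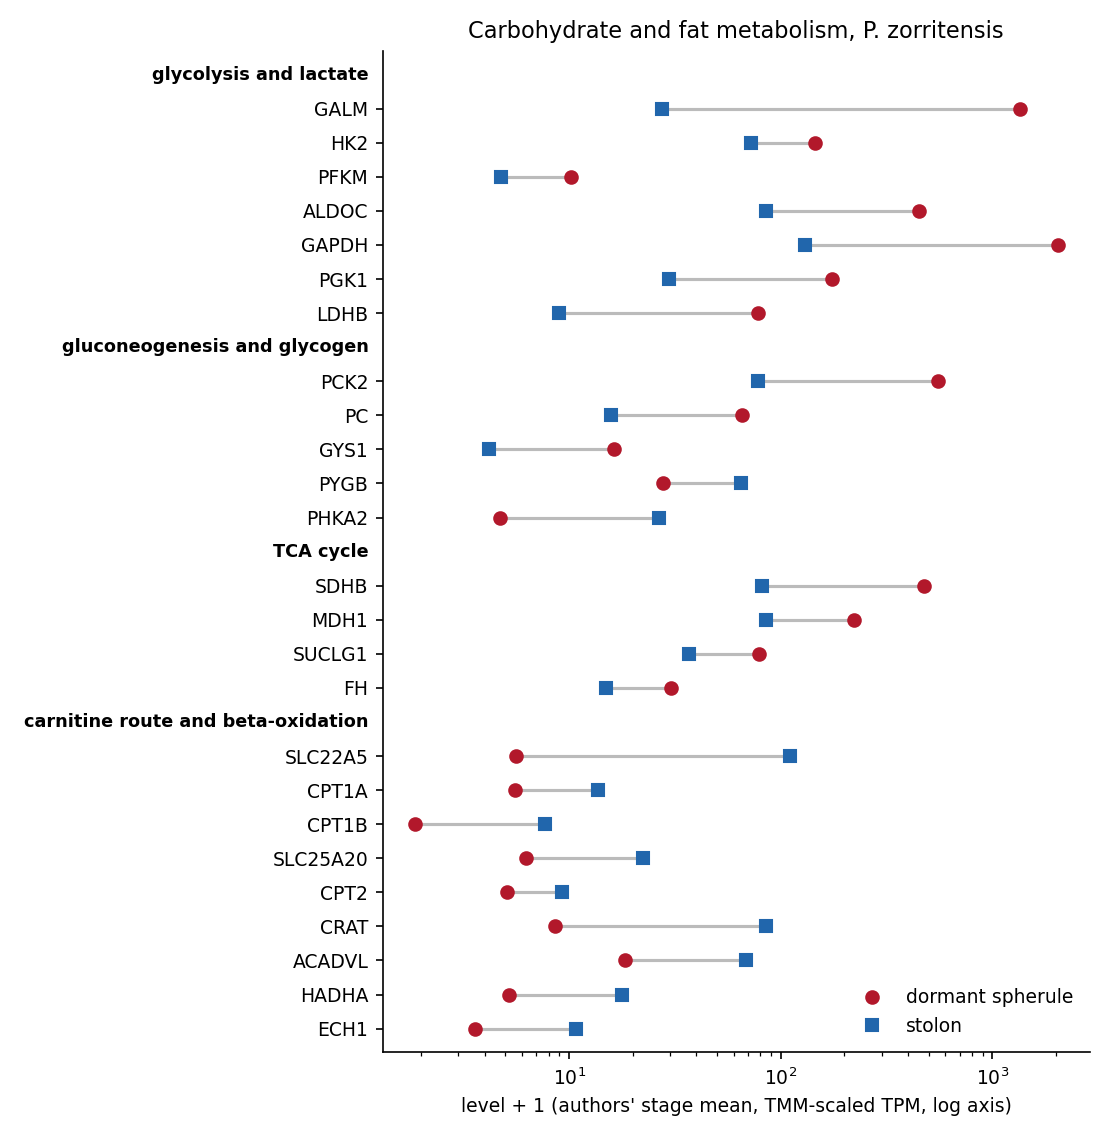
Level + 1 (log axis, authors' stage means of TMM-scaled TPM) of genes of glycolysis, glucose and glycogen synthesis, the TCA cycle and fat oxidation in dormant spherules (red circles) and stolons (blue squares). Spherules lie to the right for GAPDH (2034 against 129.3) and PCK2 (552 against 77.1), and to the left for SLC22A5 (4.58 against 110.0) and ACADVL (17.4 against 67.7).

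Lipid synthesis and storage genes had 4 of 20 higher and 6 lower, with a median of -0.41, beside 19.2% and 22.5% over all transcripts. MTTP, which loads lipid onto lipoproteins, had 12.7 in spherules and 58.8 in stolons. PNPLA2, a triglyceride lipase, had 6.85 in spherules and 25.9 in stolons, and ACACA, which commits carbon to fatty acid synthesis, had 3.39 in spherules and 10.7 in stolons. HMGCS1, of sterol synthesis, had 4.57 in spherules and 23.9 in stolons, but changed by only -0.22 with the transcripts of its Trinity gene summed. NPC1 and NPC2 move cholesterol out of lysosomes and differed in direction, with 6.46 in spherules and 34.1 in stolons for NPC1, and 425 in spherules and 175 in stolons for NPC2. LPIN2, a phosphatidate phosphatase, had 38.7 in spherules and 10.7 in stolons. ELOVL4, which extends very long fatty acids, had 68.2 in spherules and 27.6 in stolons.

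Hypoxia-inducible factor (HIF) signaling couples oxygen level to gene expression, with the alpha subunit destroyed after hydroxylation when oxygen is present. The transcript named HIF1A had 231 in spherules and 61.9 in stolons, against 57.4 in zooids, 63.7 in pre-buds and 48.7 in germinating spherules. Of the 6 transcripts in its Trinity gene, 5 were compared and 4 rose, and their sum was 1251 in spherules and 453 in stolons, a 2.76-fold difference. At the same sum the rise of HIF1A fell under 2-fold. HIF1AN, an inhibitor that hydroxylates HIF, had 49.7 in spherules and 24.5 in stolons, just under 2-fold, and 84.8 in spherules and 27.6 in stolons with its 2 transcripts summed. EGLN1, the prolyl hydroxylase that marks HIF for destruction, had 15.4 in spherules and 13.2 in stolons. Of 6 transcripts compared in the HIF list, which also takes in CREBBP, NPAS3 and NPAS4, 1 rose and none fell.

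Insulin signaling controls growth and nutrient use. Of 18 transcripts of the insulin, PI3K, TOR and FOXO list, 3 rose and none fell, with a median of 0.17. The shares over all transcripts were 19.2% higher and 22.5% lower. The insulin receptor substrate IRS1 had 44.4 in spherules and 20.0 in stolons, GRB2, an adaptor, had 162 in spherules and 78.0 in stolons, and PRKAG1, a subunit of the energy sensor AMPK, had 38.4 in spherules and 17.7 in stolons. The receptor INSR had 16.7 in spherules and 12.0 in stolons, and FOXO1, a forkhead factor restrained by insulin, had 7.58 in spherules and 13.021 in stolons. The 3 transcripts of the FOXO1 Trinity gene summed to 41.0 in spherules and 38.7 in stolons. Most of the spherule sum was a transcript named CREBBP, at 23.9 in spherules and 14.1 in stolons. The remaining transcript, under another entry name, had 9.51 in spherules and 11.6 in stolons. The sum therefore does not give the direction of FOXO1. None of the 3 rises passed 2-fold at the same sum.

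Most other transcription factors discussed by the study for dormancy stayed within 2-fold between spherules and stolons. The study tested all pairs of stages, so its calls of higher expression in dormancy do not rest on stolons alone. JUN, an AP-1 subunit, had 381 in spherules and 293 in stolons, above 110.0 in zooids, 155 in pre-buds and 92.8 in germinating spherules. NR4A3, an orphan nuclear receptor, had 29.9 in spherules and 37.3 in stolons, and NKX2-3, the named NK homeobox transcript, had 119 in spherules and 126 in stolons. RARG, a retinoic acid receptor, had 59.9 in spherules and 105 in stolons in its more abundant transcript. STAT5A, a cytokine signal transducer, had 13.6 in spherules and 13.5 in stolons, and STAT5B had 7.56 in spherules and 15.7 in stolons. The 3 transcripts of the STAT5B Trinity gene summed to 93.6 in spherules and 62.3 in stolons. Most of both sums was a transcript named for the translation factor EIF4H, at 64.1 in spherules and 34.9 in stolons. The remaining transcript, without a name, had 21.9 in spherules and 11.7 in stolons. The sum therefore does not give the direction of STAT5B. MBD2, which reads methylated DNA, had 35.5 in spherules and 24.3 in stolons, and FOXH1, a partner of SMAD proteins, had 18.1 in spherules and 26.3 in stolons. MSL3, a subunit of a histone acetyltransferase complex, was past 2-fold at 41.0 in spherules and 16.3 in stolons. No transcript named for fos was found among the names.

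Chaperones help proteins fold, and 5 of 23 compared rose (21.7%) while 3 fell (13.04%), with a median of 0.31 (-0.61 at the same sum, where 3 rose and 10 fell). These shares were near or under those over all transcripts. The 5 that rose act in the cytosol, a grouping made after the values had been seen. HSP90AB1, the constitutive HSP90, had 987 in spherules and 208.3 in stolons. Its cochaperone FKBP4 had 93.4 in spherules and 32.2 in stolons, and DNAJB4 had 106 in spherules and 21.6 in stolons. CCT4, of the chaperonin for actin and tubulin, had 96.7 in spherules and 28.1 in stolons. The other chaperonin subunits compared stayed within 2-fold, from TCPQ at 26.4 in spherules and 20.2 in stolons to TCPA at 9.58 in spherules and 16.0 in stolons. HSPH1, also of the cytosol, was lower within 2-fold, at 17.8 in spherules and 29.8 in stolons. HSPB1, a small heat shock protein, had 11.3 in spherules and was listed at 0 in stolons, with 56.5 in zooids. The 3 that fell reside in the endoplasmic reticulum. HSP90B1 had 35.2 in spherules and 94.7 in stolons in the transcript that fell, HYOU1 had 5.61 in spherules and 13.8 in stolons, and PDIA5, a disulfide isomerase, had 9.74 in spherules and 34.3 in stolons. HSPA5, the main chaperone of that compartment, was within 2-fold at 91.2 in spherules and 181 in stolons. PDIA4, a disulfide isomerase of the same compartment, went the other way within 2-fold, at 137 in spherules and 70.5 in stolons.

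Protection against sulfide, iron and oxidants was uneven. Of 29 transcripts compared, 7 rose (24.1%) and 4 fell (13.8%), with a median of -0.12, beside 19.2% and 22.5% over all transcripts. SQOR, which oxidizes hydrogen sulfide in mitochondria, had 435 in spherules and 14.3 in stolons, a 28.4-fold difference, with 44.8 in zooids and 152 in germinating spherules. ETHE1, the next enzyme of sulfide oxidation, had 30.9 in spherules and 13.9 in stolons. FTH1, the ferritin heavy chain that stores iron, had 23379.6 in spherules and 4201 in stolons. TXNRD2, a mitochondrial thioredoxin reductase, had 25.7 in spherules and 12.1 in stolons, and GPX6, a glutathione peroxidase, had 144 in spherules and 68.9 in stolons. The rises of ETHE1, TXNRD2 and GPX6 were close to 2-fold, and setting both stages to the same sum lowers changes by about 0.95. Of the 4 that fell, 3 handle glutathione. GCLC, of glutathione synthesis, had 2.32 in spherules and 7.09 in stolons, GSR, which reduces it, had 10.1 in spherules and 43.0 in stolons, and GSTM3, which conjugates it, had 3.41 in spherules and 18.7 in stolons. Outside the list, GLRX2, a mitochondrial glutaredoxin, had 32.6 in spherules and 287 in stolons.

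Extracellular matrix and its remodeling were lower in spherules. Of 36 genes of matrix, adhesion and matrix proteases, 17 fell and 1 rose, with a median of -0.88, and of 21 genes of collagens and basement membrane 8 fell and 1 rose, with a median of -0.59. MMP14, a membrane metalloproteinase, had 4.61 in spherules and 44.7 in stolons, and MMP24, another of these, had 4.01 in spherules and 16.3 in stolons. FN1, fibronectin, had 1.53 in spherules and 10.6 in stolons, and THBS1, a thrombospondin, had 3.199 in spherules and 20.5 in stolons. CDH2, a cadherin that joins cells, had 1.18 in spherules and 22.9 in stolons. FBN2, a microfibril protein, had 14.8 in spherules and 43.1 in stolons, and PTK2, the focal adhesion kinase, had 9.16 in spherules and 26.4 in stolons.

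In the basement membrane, COL4A1 had 8.10 in spherules and 34.8 in stolons, AGRN, agrin, had 2.15 in spherules and 11.3 in stolons, and PXDN, a peroxidase that links collagen IV, had 1.52 in spherules and 6.74 in stolons. The laminin chains that fell were LAMA5 at 3.85 in spherules and 9.54 in stolons, LAMB1 at 5.13 in spherules and 13.7 in stolons, and LAMC1 at 5.92 in spherules and 15.6 in stolons, while LAMB2 had 48.1 in spherules and 39.4 in stolons. COL5A1, a fibrillar collagen, rose with 8.68 in spherules and 3.63 in stolons. In the matrix list the exception was CD109, a surface protein of the alpha-2-macroglobulin family, at 766 in spherules and 146 in stolons.

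Muscle genes gave the largest named rises. Of 18 contractile transcripts compared, 11 rose and 2 fell, with a median of 1.98. CNN1, calponin, had 258 in spherules and 0.177 in stolons. The troponin subunits TNNC2, TNNI1 and TNNC1 had 286, 126 and 63.7 in spherules against 0.386, 0.145 and 0.229 in stolons. ACTA1, a muscle actin, had 145 in spherules and 0.376 in stolons, and MYL5, a myosin light chain, had 177 in spherules and 2.62 in stolons. The 2 that fell were FLNC, a filamin, at 13.3 in spherules and 27.9 in stolons, and ACTN2, an actinin, at 11.1 in spherules and 26.3 in stolons. The median varied between 0.89 and 3.72 with pseudocount, filter and scaling.

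Zooids, which carry the body wall and siphon muscles, had far more of the same genes, with CNN1 at 2474 and ACTA1 at 4224. Over the 18 contractile transcripts with a zooid level of at least 20, the median level was 11.9% of that in zooids for spherules and 0.400% for stolons, and 1 was under 1% in spherules and 10 in stolons. Genes of other zooid organs with a zooid level of at least 20 were mostly low in both stages relative to zooids. For 22 ciliary transcripts the median was 2.23% of the zooid level in spherules and 1.09% in stolons, and for 12 digestive transcripts it was 0.438% in spherules and 0.0362% in stolons. The digestive marker CTRB2 was listed at 0 in both. Ciliary transcripts also rose, namely CCD81, DAAF3, BBS2, ODF3B, ROP1L and SPAT6, and no ciliary transcript compared fell. ODF3B had 11.2 in spherules, 4.34 in stolons and 50.2 in zooids, and DAAF3 had 24.0 in spherules, 8.12 in stolons and 9.39 in zooids. The contribution of zooid tissue to the muscle and ciliary rises was not tested. The same holds for FABP6, a bile acid carrier, with 8.201 in spherules, a listing of 0 in stolons and 526 in zooids.

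**Figure D3:**
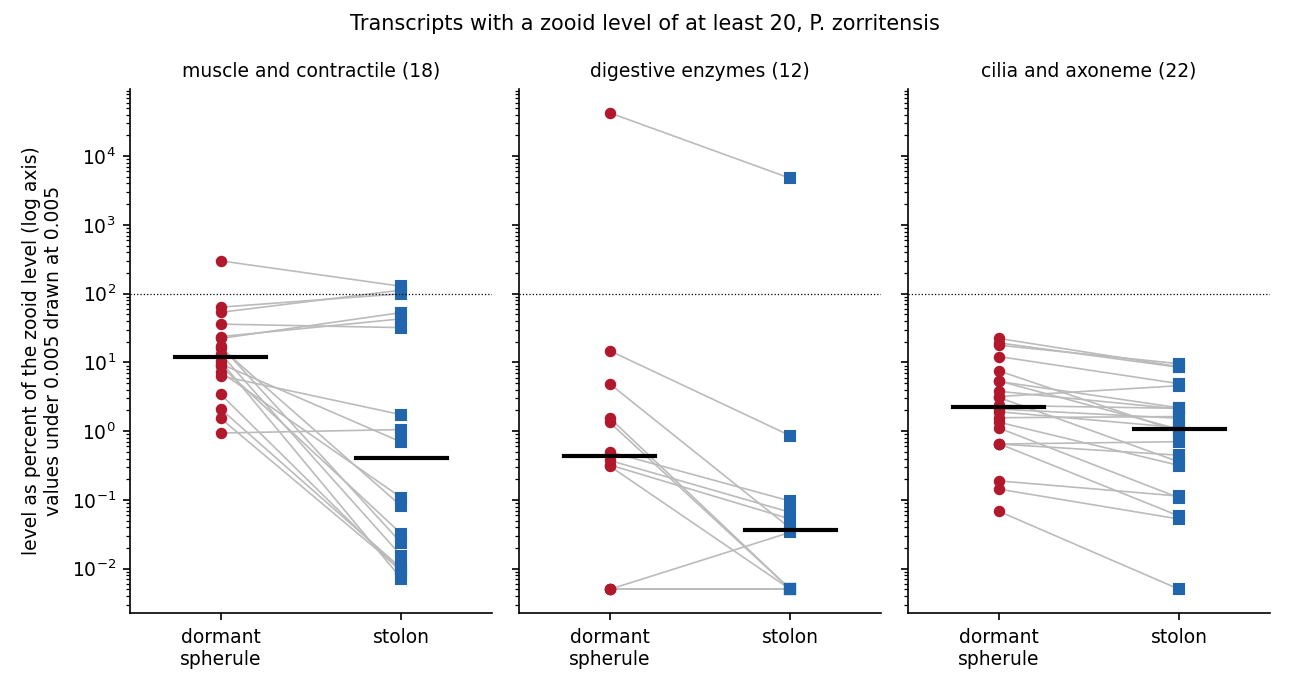
Levels in dormant spherules (red circles) and stolons (blue squares) as a percent of the zooid level (log axis) for muscle, digestive and ciliary transcripts with a zooid level of at least 20. Thin lines join the values of 1 transcript, thick bars are medians (11.9% in spherules and 0.400% in stolons for muscle), the dotted line is the zooid level, and the isolated digestive point is AMY2A.

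Amylase stood apart from the other digestive genes. AMY2A, which splits starch and glycogen, had 8982 in spherules and 1001 in stolons, but 21.1 in zooids, 6387 in pre-buds and 3696 in germinating spherules, so spherules held 42658% of the zooid level. SI, a sucrase-isomaltase, had 5.32 in spherules and 0.057 in stolons. Other digestive entry names were lower. PLA2G1B, a secreted phospholipase, had 2.18 in spherules and 86.5 in stolons, and TMPRSS15, named for enteropeptidase, had 4.02 in spherules and 41.4 in stolons. Of 13 digestive transcripts compared 4 rose and 5 fell, beside 19.2% and 22.5% over all transcripts.

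Of 62 transporters, 12 rose (19.4%) and 17 fell (27.4%), with a median of -0.09, shares near the 19.2% and 22.5% over all transcripts, and the members named here are among the largest changes on either side. Both aquaporins compared rose, AQP8 with 257 in spherules and 9.31 in stolons, and AQP1 with 31.5 in spherules and 3.32 in stolons. SLC4A11, a borate transporter relative that moves protons and water, had 218 in spherules and 18.4 in stolons, and its second transcript had 106 in spherules and 9.47 in stolons. SLC16A3, which exports lactate in mammals, had 1.23 in spherules and 47.8 in stolons. SLC16A4, of the same family, had 5.02 in spherules and 67.031 in stolons. SLC39A12, a zinc importer, had 11.6 in spherules and 149 in stolons, and SLC7A8, an amino acid exchanger, had 6.99 in spherules and 114 in stolons. The fructose carrier name SLC2A5 was borne by a transcript that rose, with 169 in spherules and 22.3 in stolons, and by another that fell, with 2.06 in spherules and 15.2 in stolons.

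The largest fall of a named transcript was HEBP2, a heme-binding protein, with 4.29 in spherules and 2803 in stolons, a 530-fold difference, and 1399 in pre-buds. SOX4, a transcription factor of progenitor cells in vertebrates, had 2.20 in spherules and 105 in stolons. PCTP, a phosphatidylcholine carrier, had 17.3 in spherules and 314 in stolons, and GBA2, a glucosylceramidase, had 1.18 in spherules and 39.6 in stolons. Among developmental factors, 6 of 32 rose (18.8%) and 5 fell (15.6%), near the shares over the named transcripts. RUNX1, of blood cell formation, had 26.4 in spherules and 9.50 in stolons, and FOXQ1 had 11.9 in spherules and 2.41 in stolons. NFKB1, of immune signaling, had 7.72 in spherules and 38.6 in stolons, and IRF1, an interferon response factor, had 0.617 in spherules and 6.12 in stolons.

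Developmental signaling genes were mostly lower, with few past 2-fold. None of 9 Notch and Hedgehog transcripts was higher in spherules, and 2 fell, among them the Notch target HES1 at 17.1 in spherules and 88.9 in stolons. In the Wnt list 1 of 10 fell, RSPO2, a Wnt enhancer, at 0.726 in spherules and 6.80 in stolons. In the TGF-beta and BMP list 3 of 10 fell and 1 rose, beside 22.5% and 19.2% over all transcripts. BMPR2, a BMP receptor, had 4.05 in spherules and 12.6 in stolons, whereas MSTN, the name of the growth inhibitor myostatin, had 45.1 in spherules and 2.93 in stolons. TLL2, a protease that activates such ligands, had 1.47 in spherules and 36.1 in stolons. With the transcripts of its Trinity gene summed, a TLL2 transcript changed by only -0.55.

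Of 44 cell cycle and replication names, 26 did not reach a level of 5 in either stage. Of the 18 compared, 1 rose and 2 fell (11.1%), both under the 19.2% and 22.5% over all transcripts. CCND2, cyclin D2, had 11.0 in spherules and 28.9 in stolons, and CCNE1, cyclin E1, had 4.35 in spherules and 13.7 in stolons. Among 22 chromatin transcripts 2 rose (9.09%) and 4 fell (18.2%), against 16.1% and 18.6% of the named transcripts. EED and SUZ12, subunits of the Polycomb complex that methylates histone H3, had 1.97 and 1.08 in spherules against 5.56 and 5.24 in stolons. Both passed the filter only through stolon levels just above 5. RBBP4, the other member of that complex compared, stayed within 2-fold at 6.18 in spherules and 5.49 in stolons. The histone variant H2AZ2 had 32.9 in spherules and 136 in stolons, with 575 in zooids. RNA splicing and helicase genes had 13 of 56 higher and 1 lower, with a median of 0.34, beside 19.2% and 22.5% over all transcripts.

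Few proteasome and ubiquitin transcripts passed 2-fold. Of 42 compared, 1 rose and 2 fell, with a median of -0.41, beside 19.2% and 22.5% over all transcripts. The one that rose was USP14, a deubiquitinase of the proteasome, at 316 in spherules and 94.1 in stolons. In autophagy and lysosomes 5 of 27 rose, near the 19.2% over all transcripts, and 9 fell, above the 22.5%. MAP1LC3A, which coats autophagosomes, had 2675 in spherules and 779 in stolons, whereas WIPI2 and ATG9A, which act at the start of autophagosome formation, had 8.73 and 3.24 in spherules against 36.0 and 9.98 in stolons. Of 15 hemocyte and immune transcripts 4 rose and 3 fell, beside the same 19.2% and 22.5%. HDC, which makes histamine, had 84.7 in spherules and 7.76 in stolons, and MYD88, an adaptor of Toll-like receptors, had 16.9 in spherules and 52.5 in stolons.

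Levels in the other stages place the differences, though they share the dormant and stolon columns with the comparison. Of the 3129 transcripts that rose, spherules had the highest of the 5 stage means in 2618 (83.7%), while stolons had the lowest in 1317 (42.1%). Of the 3652 that fell, stolons were highest in 2620 (71.7%) and spherules lowest in 2335 (63.9%). Pre-buds lay between spherules and stolons for 65.5% of the rises and 78.6% of the falls, and germinating spherules for 76.0% of the rises and 65.8% of the falls. Among the ribosomal proteins, spherules were highest of the 5 stages in 40 of 42. Germinating spherules had 14740.3 for RPS15 and 798 for GAPDH, both between spherules and stolons. For muscle genes spherules were highest of the 5 stages in none of 18.

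**Figure D4:**
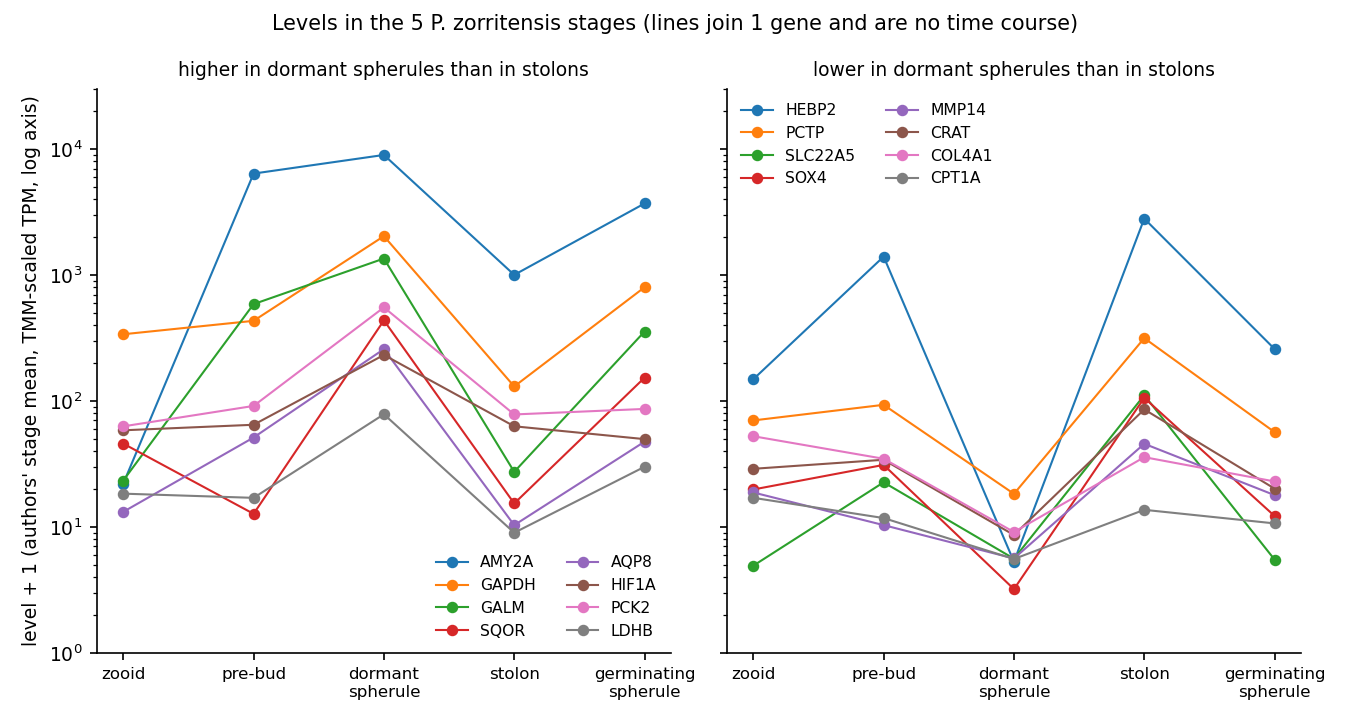
Level + 1 (log axis, authors' stage means of TMM-scaled TPM) in the 5 P. zorritensis stages of 8 genes that were higher (left) and 8 that were lower (right) in dormant spherules than in stolons. AMY2A reached 8982 in spherules and 6387 in pre-buds, and HEBP2 had 4.29 in spherules, 2803 in stolons and 1399 in pre-buds.

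The same contrast in C. lepadiformis, between its dormant winter buds and its stolons, came from separate animals and libraries, with all material from 1 laboratory colony. It was much smaller. Of 11707 transcripts compared there, 418 (3.57%) rose and 645 (5.51%) fell in the dormant stage, or 9.08% in either direction. Over 2495 transcript pairs compared in both species, the interquartile range of the changes spanned 1.44 in P. zorritensis and 0.42 in C. lepadiformis. Across these pairs Spearman's rho was 0.16 and Pearson's r 0.15, given as a description since genes are not independent replicates and the points share 4 stage means.

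Of the 384 pairs that rose in P. zorritensis, 8 (2.08%) rose in C. lepadiformis, against 0.962% of all pairs, and these were 33.3% of the 24 that rose there, where 15.4% of all pairs rose in P. zorritensis. Of the 454 that fell in P. zorritensis, 38 (8.37%) fell in C. lepadiformis, against 4.05% of all pairs, and these were 37.6% of the 101 that fell there, where 18.2% of all pairs fell in P. zorritensis. Opposite calls were made in 19 pairs that rose in P. zorritensis (4.95%) and in 9 that fell (1.98%), so a fall in P. zorritensis went with a rise in C. lepadiformis at nearly the share at which rises were shared. The shared rises included AQP8, with 202 in C. lepadiformis winter buds and 50.9 in its stolons, and AMY2A, with 216 in winter buds and 51.8 in stolons. CD109 had 905 in winter buds and 232 in stolons, HDC had 62.96 in winter buds and 27.9 in stolons, and NPC2 had 170.3 in winter buds and 58.7 in stolons.

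The shared falls included matrix genes. THBS1 had 11.3 in winter buds and 65.6 in stolons, MMP14 had 20.5 in winter buds and 47.8 in stolons, and FBN2 had 54.0 in winter buds and 126.7 in stolons. Of 31 pairs in the matrix, adhesion and protease list, 7 fell and 1 rose in C. lepadiformis. Of 19 pairs of collagens and basement membrane 5 fell there and none rose, against 4.05% lower over all pairs. None of these 5 falls was shared with P. zorritensis. COL5A1, which rose in P. zorritensis, fell in C. lepadiformis, with 149 in winter buds and 382 in stolons. Ribosomal and glycolytic genes did not reach 2-fold in C. lepadiformis in any pair, with medians of 0.10 over 41 pairs and -0.10 over 7. GAPDH had 277 in winter buds and 298 in stolons. The carnitine genes fell short of 2-fold, with CPT1A at 23.4 in winter buds and 34.8 in stolons and SLC25A20 at 15.8 in winter buds and 21.5 in stolons. HEBP2 went the opposite way, with 477 in winter buds and 137 in stolons.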

How the data were processed

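Stage tissue of P. zorritensis and C. lepadiformis was sequenced as paired reads in 2 lanes, with replicates of each stage in both. The authors trimmed the reads (Trim Galore), filtered out ribosomal RNA (Bowtie2) and sequences that FastQC called overrepresented, and quantified transcripts of a Trinity assembly with kallisto. The deposited values are a signal, TPM scaled by TMM factors per species and averaged over replicates by the authors, so depth per sample and the error of each mean are unknown. Removal of overrepresented sequences can lower the most abundant transcripts. Entry names were given by DIAMOND searches of human RefSeq and then UniProt proteins, and name the best match, not an orthologue. The table of pairs also holds 4 columns with the authors' own calls of stages up or down, which were not used. No sequence or reference was used here.

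Changes were computed in Python 3.11.15 with numpy 2.4.6, pandas 2.3.3 and scipy 1.17.1 as log2 ratios with a pseudocount of 1, a level of at least 5 in the higher stage and a 2-fold threshold, and figures with matplotlib 3.10.9. The calculation was tested on simulated data. The 38 gene lists were patterns on entry names, from which unrelated names were excluded by name alone. Members and lists were chosen with earlier results of these data known. Genes named are the 15 largest rises and 15 largest falls, up to 5 per list and direction, the 10 most abundant per stage, the factors of the study, and 2 per list within 2-fold, from which the text takes some and adds others chosen after their values were seen. Alternatives changed the pseudocount, filter, threshold, scaling and handling of isoforms. Some list members were counted but are not reported here by name.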

Additional observations from a re-analysis of the deposited data

How the results depend on the processing

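No paired analysis was possible because only stage means were analysed, and leaving out single replicates was not possible for the same reason. Counts of transcripts higher in spherules were 1631 with at least 20 in the higher stage, 4791 at 1.5-fold, 1187 at 4-fold and 1103 at the same sum, against 3129. Counts lower were 1397 with at least 20, 5858 with no filter, 1745 at 4-fold and 8359 at the same sum, against 3652. At the same sum the medians were -0.027 for cytosolic ribosomal proteins, -0.014 for translation factors, 1.44 for glycolysis, 0.075 for gluconeogenesis and glycogen, -0.36 for the TCA cycle, -0.52 for oxidative phosphorylation, -1.40 for fatty acid oxidation, -0.61 for chaperones, -1.06 for antioxidant genes, -1.50 for collagens and basement membrane, -1.73 for other matrix genes and 0.89 for muscle, against -1.01 over all transcripts. The gluconeogenesis and glycogen median was 0.15 with no filter and 0.15 with isoforms summed. The muscle median was 2.67 with a pseudocount of 0.1, 1.27 with 5, 1.37 with no filter, 3.72 with at least 20 and 1.14 with isoforms summed. Of 926 named transcripts past 2-fold, 584 stayed past it with a pseudocount of 5, 917 with the median change at 0, 838 with isoforms summed, where 9 turned direction, and 603 at the same sum, an alternative chosen for single genes after seeing the data.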

Other observations

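Genes of sphingolipid metabolism, grouped after their values had been seen, were mostly lower in spherules. Of 13 transcripts compared, 8 fell and 1 rose. The ceramide synthase CERS1 had 4.42 in spherules and 43.4 in stolons, and the ceramide-1-phosphate carrier CPTP had 4.11 in spherules and 56.6 in stolons. SMPD1, acid sphingomyelinase, named a transcript with 1.46 in spherules and 16.2 in stolons and another with 6.54 in spherules and 0.083 in stolons.

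Cell junction genes also differed in direction. Of 5 claudin transcripts, which seal epithelia, 3 rose and 1 fell, beside 19.2% and 22.5% over all transcripts. CLDN1 had 11.5 in spherules and 0.367 in stolons, with 297 in zooids. CLDN7 and a CLDN19 transcript rose to 5.47 and 5.81 in spherules, with 98.8 and 72.9 in zooids. The contribution of zooid tissue to these 3 rises was not tested. Another CLDN19 transcript stayed within 2-fold. CLDN18, the most abundant claudin in both stages, fell, with 222 in spherules and 459 in stolons. Both gap junction transcripts compared fell, GJA4 with 51.4 in spherules and 166 in stolons, and GJD2 with 12.1 in spherules and 57.3 in stolons.

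Transcripts of a gene did not always move together. Of 2322 Trinity genes with several transcripts compared, 50 held transcripts past 2-fold in opposite directions, 13 of these genes with a name. Of 90 entry names borne by several transcripts compared, 8 were called in both directions, among them DHRS11, a short-chain dehydrogenase, with 127 in spherules and 26.6 in stolons for the transcript that rose and 8.97 in spherules and 85.2 in stolons for the one that fell.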
